A study of Mus musculus with 14 samples.

Results

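The genes described here are 10 members of the epidermal growth factor (EGF) system of the mouse, 7 that encode ligands (Egf, Tgfa, Hbegf, Areg, Ereg, Btc and Nrg1) and 3 that encode receptors (Egfr, Erbb2 and Erbb3). They were taken by gene name from the 49585 genes of both deposited expression tables, by a rule that uses no measured value. RNA-seq was made from mouse hind limb skeletal muscle in 4 groups of 3 libraries, namely wild type (WT) and Myf6 KO muscle, each uninjured and after injury. In a separate ChIP-seq experiment, DNA bound by Flag-tagged Myf6 was precipitated with a Flag antibody from primary myotubes, whose cell type the labels give as satellite cells of adult mouse muscle, in 1 library with 1 control. The labels do not give the kind of injury, the time after it, the strain, the age or the design of the knockout allele. The uninjured and the injured library of a replicate carry the same number and are read here as the left and right side of 1 animal, which gives 6 animals. The labels give no litter or batch, so any difference of litter or batch between WT and KO animals cannot be told apart from genotype.

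EGF family ligands are made as membrane-anchored precursors, and metalloproteases such as Adam17 cut many of them free. Egf, Tgfa and Areg bind the receptor Egfr, Hbegf, Btc and Ereg bind both Egfr and Erbb4, and the neuregulin Nrg1 binds Erbb3 and Erbb4. Erbb2 has no known ligand of its own and works as the partner of the other receptors, and Erbb3 has a weak kinase and signals mainly through its partner. Bound receptors act through the Ras-MAPK and PI3K-Akt cascades, and in muscle the neuregulin branch is known for its roles at the neuromuscular junction, in Schwann cells and in muscle spindles. Myf6 (also named Mrf4) is a myogenic transcription factor of the basic helix-loop-helix class, which binds the E-box, the DNA word CANNTG.

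The libraries held between 1880087 and 49392472 reads assigned to genes, and the shallowest was replicate 2 of uninjured WT. All values are in RPM, reads assigned to a gene over all assigned reads on a scale that sums to 1000000 in each library, which is not scaled to gene length, so levels are compared between libraries and not between genes. A floor of 3 reads corresponded to 0.0607 to 1.60 RPM, depending on the library, and covers counting error only. Myf6 itself, the targeted gene, was at 1.86 to 120.7 RPM over all libraries, with a KO mean of 2.53 ± 0.83 RPM against a WT mean of 60.9 ± 45.0 RPM in uninjured muscle (SD, n = 3 each), and 3.07 ± 0.23 against 80.4 ± 37.0 RPM in injured muscle. On the log2(RPM + 1) scale this was a change of -3.90 (SE 0.51, adjusted p = 0.0215) in uninjured and -4.22 (SE 0.33, adjusted p = 0.00697) in injured muscle (limma, Benjamini-Hochberg over all genes tested). Myf6 was called under 13 of 17 alternatives in uninjured muscle (estimates -4.39 to -3.34, highest adjusted p = 0.257, without uninjured KO replicate 1) and under 11 of 17 in injured muscle (-4.73 to -3.88, highest adjusted p = 0.110, with a replicate block). The 6 myofibre markers (Acta1, Ckm, Myh4, Myh1, Des and Ttn) summed to between 77532 and 133415 RPM in the 12 libraries, as the tissue label states, and the 5 epithelial markers to between 0 and 4.04 RPM. The tissue is a mixture of cell types, so fewer cells of a type and less RNA per cell cannot be told apart in any value below.

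Binding of Flag-Myf6 near the 10 genes was described from the peak list. Of 12898 peaks in the authors' list, 1 or more lay inside 4 of the 10 genes (Egf, Nrg1, Erbb2 and Erbb3), against 17.5% of 21631 protein-coding genes. With 100 kb on either side added, 6 of the 10 had a peak, Tgfa and Hbegf being added, against 61.3% of protein-coding genes, and Egfr, Areg, Ereg and Btc had none. Peaks with a fold enrichment of at least 10 lay inside 0 of the 10 genes, against 6.63% of protein-coding genes. These are counts of 1 library, with no test, and long genes hold more peaks: Nrg1 spans 1084.2 kb, and its 2 peaks had their summits 344355 and 767197 bp from its end with the lower coordinate.

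Egf, on the minus strand at chr3:129677574-129755322, had 6 peaks in and around it. The peak inside the gene, at chr3:129754243-129754369, had its summit 1013 bp downstream of the gene's start and a fold enrichment of 8.16 over the local background as the authors' peak caller gave it. Another, at chr3:129766934-129767171, lay 11.6 kb upstream with a fold enrichment of 11.6, and the remaining 4 lay 31.9 to 96.3 kb away with folds of 5.32 to 11.6. The median over all peaks was 7.68. Erbb2, at chr11:98412484-98437716 on the plus strand, had a peak at chr11:98418385-98418558 with its summit 6004 bp downstream of the start and a fold of 5.47, and 2 others 27.0 and 44.7 kb away. Erbb3, at chr10:128567523-128589635, had a peak at chr10:128588303-128588454 with its summit 1249 bp from the end of the gene with the higher coordinate (fold 6.77), and another at chr10:128549243-128549416, 18.1 kb from the opposite end (fold 11.3). The other Erbb3 peak lay 70.5 kb away (fold 5.21). Tgfa, at chr6:86195038-86275744, had 3 peaks outside the gene, 25.6 to 52.8 kb from it, with folds of 5.80 to 7.10. Egfr, at chr11:16752203-16913907, had no peak within 100 kb of either end, and neither had Areg, Ereg and Btc, which lie near each other on chromosome 5. Whether peaks in cultured myotubes are present in the limb muscle that gave the RNA was not tested.

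**Figure D1:**
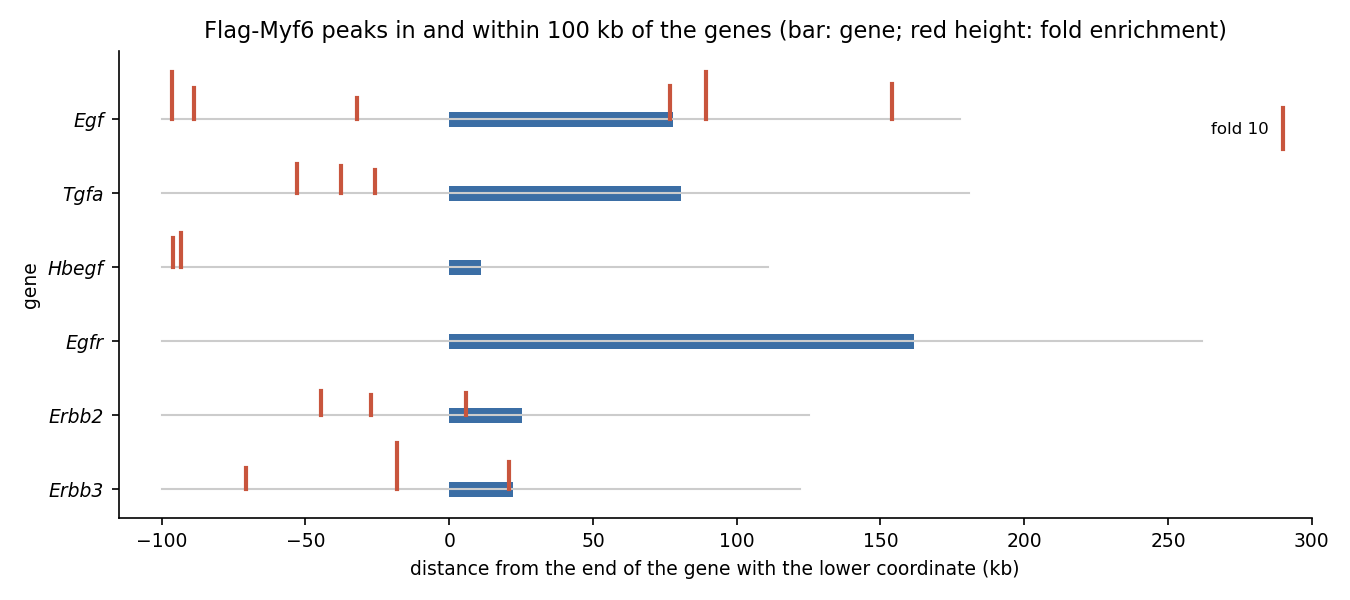
Flag-Myf6 peaks (red lines, height proportional to fold enrichment) in and within 100 kb of 6 genes (blue bars), by distance in kb from the end of each gene with the lower coordinate. Egf has 6 peaks, Egfr has none, and 1 peak lies inside each of Egf, Erbb2 and Erbb3.

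The 250 bases before the annotated start were available for 6 of the 10 genes, from RefSeq on GRCm38.p6. They are shown for Egf and Erbb2, the genes with a peak in the body near a start of known strand, and for Egfr, which had no peak within 100 kb. Each is written 5′ to 3′ on the gene's own strand, and capitals mark every match to the E-box CANNTG, which reads as CANNTG on both strands. The windows are chr3:129755323-129755572 on the minus strand (Egf), chr11:98412234-98412483 on the plus strand (Erbb2) and chr11:16751953-16752202 on the plus strand (Egfr).
Egf: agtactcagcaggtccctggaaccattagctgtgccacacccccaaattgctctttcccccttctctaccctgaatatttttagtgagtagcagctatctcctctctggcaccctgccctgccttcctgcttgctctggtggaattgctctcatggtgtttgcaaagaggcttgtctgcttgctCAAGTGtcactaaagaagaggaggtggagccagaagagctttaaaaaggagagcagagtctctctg
Erbb2: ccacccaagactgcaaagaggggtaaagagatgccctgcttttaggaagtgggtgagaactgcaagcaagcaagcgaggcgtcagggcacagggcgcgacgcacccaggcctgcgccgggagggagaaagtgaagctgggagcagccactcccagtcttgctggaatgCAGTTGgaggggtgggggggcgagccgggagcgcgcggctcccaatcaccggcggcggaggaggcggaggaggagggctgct
Egfr: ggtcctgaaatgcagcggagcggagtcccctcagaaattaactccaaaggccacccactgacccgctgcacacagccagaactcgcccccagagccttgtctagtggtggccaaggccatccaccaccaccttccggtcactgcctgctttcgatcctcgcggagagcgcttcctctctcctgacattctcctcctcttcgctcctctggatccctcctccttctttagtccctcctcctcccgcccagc

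The Egf window held 1 E-box, CAAGTG, and the Erbb2 window held 1, CAGTTG, while these letters did not occur in the Egfr window. Egf has another annotated start inside the gene, whose window at chr3:129725087-129725336, not shown, held 1 E-box, CATTTG. The Egf window shown and the distances given belong to the start at the end of the gene with the higher coordinate. E-boxes are common: 66.2% of 32851 windows of the same length held at least 1, and 13.0% held the form CAGCTG, which was in none of these 3 windows. Among the other members in the table, the Tgfa window held 1 E-box, the Areg window 2 and the Btc window 3, and of these the Areg and Btc windows held CAGCTG. No peak overlapped any of the windows shown, the nearest being the Egf peak whose summit is 1013 bp inside the gene.

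Among the ligands, Egf and Hbegf were measured in every library, Tgfa and Btc at up to 64 and 38 reads a library, and Areg, Ereg and Nrg1 at or near 0. Egf encodes the founding ligand of the family. It was at 26.6, 16.0 and 32.3 RPM in replicates 1, 2 and 3 of uninjured WT muscle and at 15.4, 12.7 and 28.7 RPM in uninjured KO muscle. In injured muscle it was at 24.3, 26.9 and 27.0 RPM in WT against 31.0, 17.2 and 23.0 RPM in KO. The groups overlapped in both states, and the injured WT libraries lay closest together. The mean was 25.0 ± 8.3 RPM in WT and 18.9 ± 8.6 RPM in KO uninjured muscle (SD, n = 3), and 26.1 ± 1.5 and 23.7 ± 7.0 RPM in injured muscle.

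Hbegf, on chromosome 18, encodes heparin-binding EGF-like growth factor, a ligand of Egfr that binds heparan sulfate. It was at 12.7, 9.57 and 16.0 RPM in uninjured WT and at 13.2, 6.30 and 15.3 RPM in uninjured KO muscle. After injury it was at 12.8, 11.2 and 12.3 RPM in WT against 16.3, 15.0 and 14.2 RPM in KO. All 3 injured KO libraries were above all 3 injured WT libraries, while the uninjured groups overlapped widely. The means of injured muscle were 15.2 ± 1.1 RPM in KO and 12.1 ± 0.8 RPM in WT (SD, n = 3), and an exact permutation test, two-sided, gave p = 0.1, the smallest p that 3 against 3 allows. Hbegf was the 1 member of 6 tested in injured muscle whose groups did not overlap, and 8.29% of the 12625 genes tested there were higher in every KO than in every WT library, 8.63% lower and 16.9% either. In uninjured muscle the groups were apart for 0 of 5 members tested, and for 6.2% (higher in KO), 15.5% (lower) and 21.7% (either) of 12460 genes.

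Tgfa encodes transforming growth factor alpha, a ligand of Egfr. It was covered by 0 to 64 reads a library. Its values were 0.676, 0.532 and 1.58 RPM in uninjured WT and 0.951, 0 and 0.397 RPM in uninjured KO muscle. After injury they were 1.13, 0 and 0.957 RPM in WT and 0.535, 1.94 and 1.30 RPM in KO. The 4 groups overlapped, and the 3 libraries with 0 or 1 read were all replicate 2. For the shallow uninjured WT replicate 2 a value of 0.532 RPM is 1 read, under the floor of 1.60 RPM.

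Btc encodes betacellulin. It was detected in all 12 libraries, with 1 to 38 reads, at 0.375 to 1.22 RPM. The mean was 0.591 ± 0.178 RPM in WT and 0.565 ± 0.148 RPM in KO uninjured muscle, and 0.808 ± 0.425 and 0.644 ± 0.331 RPM in injured muscle (SD, n = 3), so that the groups lay within one another's spread. Areg (amphiregulin) had 2 reads in the whole series, 1 each in injured KO replicates 2 and 3. Ereg (epiregulin) had 1 read, in uninjured KO replicate 3. Both were under the floor of 3 reads in every library, and no difference was detectable at this depth.

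Nrg1 encodes neuregulin 1, the ligand of Erbb3 and Erbb4 that motor axons supply to the neuromuscular junction. Of its 25 reads, 23 came from uninjured WT replicate 3 (0.758 RPM), and 1 each from uninjured KO replicate 3 and injured KO replicate 2. The other 9 libraries held 0 reads, among them injured KO replicate 3, the deepest at 49392472 reads. A mean over the uninjured WT group would therefore describe 1 library.

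**Figure D2:**
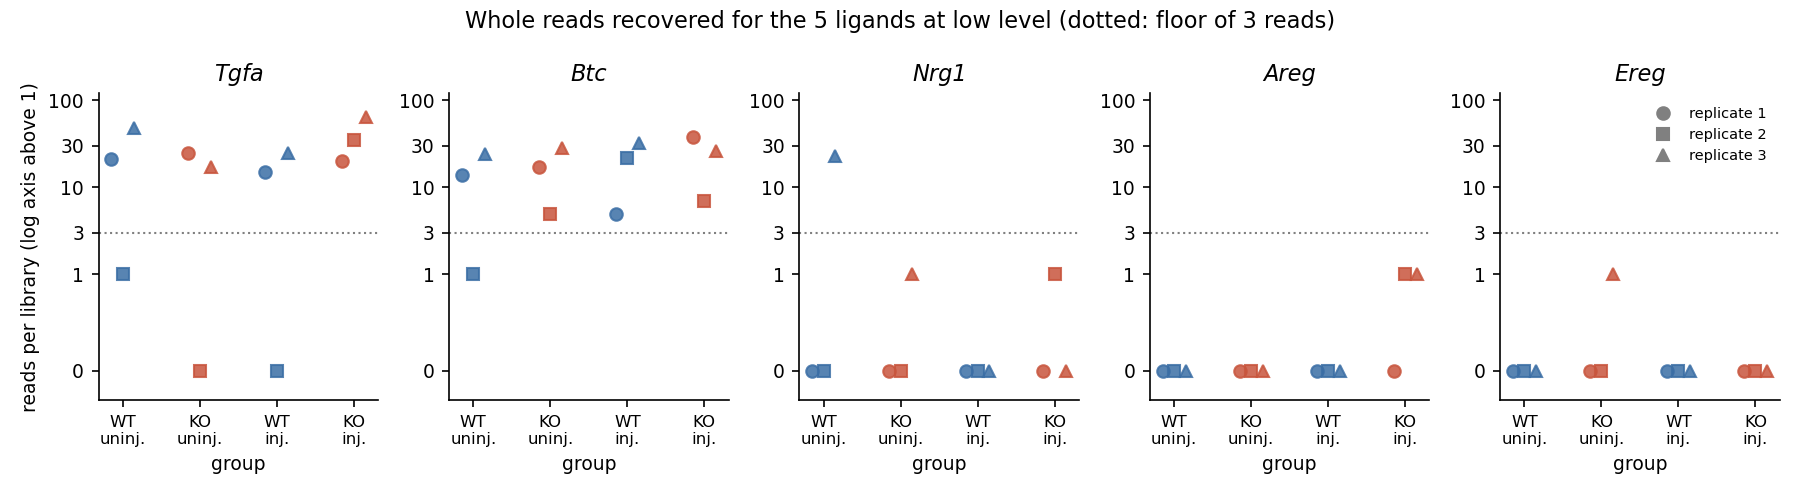
Whole reads per library (log axis above 1 read) for the 5 ligands at low level, by group, with replicates 1 to 3 as circles, squares and triangles and the floor of 3 reads dotted. Btc is above the floor in 11 of 12 libraries, Tgfa in 9, Nrg1 in 1, and Areg and Ereg in none.

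Of the family genes outside the 10, only Nrg4, a ligand of Erbb4, was high enough to be tested. It was at 0.837, 1.60 and 5.57 RPM in uninjured WT and at 4.34, 3.38 and 4.54 RPM in uninjured KO muscle. In injured muscle it was at 2.55, 0.749 and 3.33 RPM in WT against 8.91, 2.43 and 3.10 RPM in KO. The KO mean was higher in both states, but the groups overlapped and the change of 0.68 (SE 0.50, adjusted p = 0.577) in uninjured and 0.79 (SE 0.50, adjusted p = 0.627) in injured muscle did not pass the limma test. Erbb4, the fourth receptor, was at 0 to 0.725 RPM, Epgn at 0 to 1.38 RPM and Nrg2 at 0 to 0.527 RPM. Nrg3 had 0 reads in all 12 libraries.

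The receptors were all measured in every library. Egfr, the receptor of EGF itself, was at 18.1, 9.57 and 17.6 RPM in uninjured WT and at 9.24, 7.01 and 13.1 RPM in uninjured KO muscle. After injury it was at 16.9, 15.7 and 19.0 RPM in WT against 12.3, 18.9 and 14.9 RPM in KO. In uninjured muscle 2 WT libraries were above all KO libraries, and the WT library that was not, replicate 2, is the shallow one with 18 Egfr reads. In injured muscle the groups overlapped. The uninjured means were 15.1 ± 4.8 RPM in WT and 9.77 ± 3.07 RPM in KO (SD, n = 3), and the injured means 17.2 ± 1.7 and 15.4 ± 3.3 RPM.

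Erbb2, the shared partner receptor, was at 4.25, 6.91 and 2.11 RPM in uninjured WT and at 6.89, 2.13 and 3.23 RPM in uninjured KO muscle. In injured muscle it was at 5.48, 3.03 and 3.98 RPM in WT against 3.64, 8.80 and 3.64 RPM in KO. Its highest value was in injured KO replicate 2, and the other injured KO libraries lay inside the range of injured WT.

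Erbb3, the neuregulin receptor, was at 6.21, 5.32 and 1.25 RPM in uninjured WT and at 2.89, 4.64 and 3.48 RPM in uninjured KO muscle. After injury it was at 4.13, 2.92 and 4.52 RPM in WT against 3.77, 9.85 and 3.34 RPM in KO. The lowest value of the series was in uninjured WT replicate 3 and the highest in injured KO replicate 2, a 7.87-fold range, against 2.55-fold for Egf, 2.59-fold for Hbegf, 2.72-fold for Egfr and 4.17-fold for Erbb2.

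**Figure D3:**
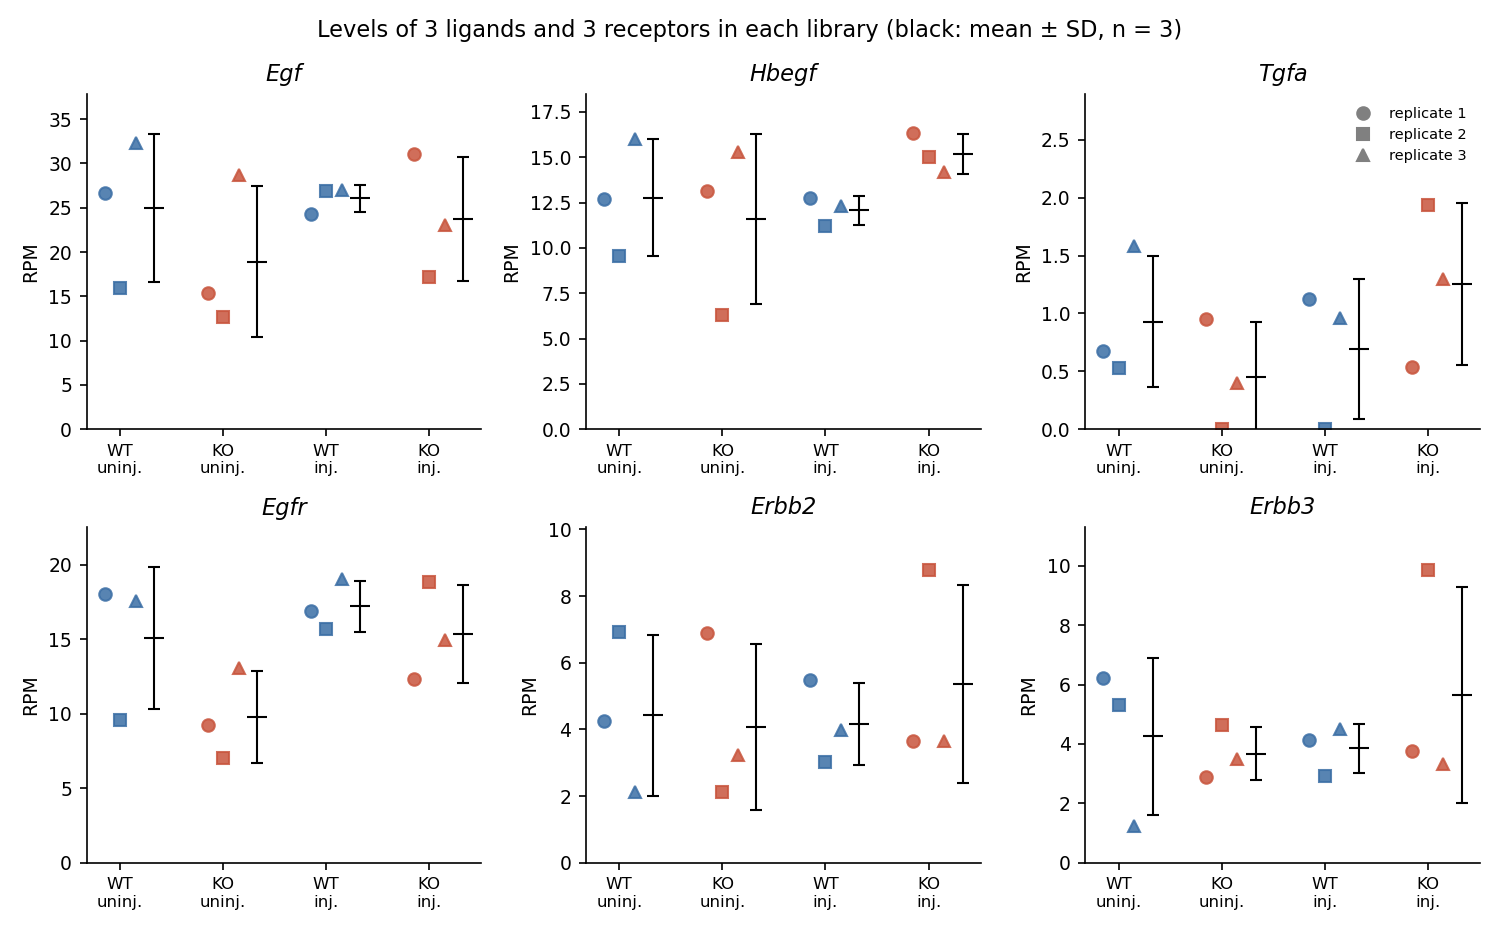
Level in RPM of 3 ligands (upper row) and 3 receptors (lower row) in each library by group, with replicates 1 to 3 as circles, squares and triangles and the mean ± SD (n = 3) in black. The injured KO libraries lie above the injured WT libraries for Hbegf, and injured KO replicate 2 has the highest Erbb2 and Erbb3.

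Injured KO replicate 2, the library with the highest Erbb2 and Erbb3, also had the highest sum of 5 endothelial markers (Pecam1, Cdh5, Tek, Tie1 and Esam), 502 RPM against 163 to 266 RPM in the other libraries. It had the highest sum of 5 smooth muscle and pericyte markers (Myh11, Rgs5, Acta2, Cspg4 and Pdgfrb), 723 RPM against 407 to 611 RPM. Its share of mitochondrial reads was also the highest, 23.2% against 3.63% to 22.3%, with uninjured WT replicate 2 close to it at 22.3%. The part of these differences in the values of Erbb2 and Erbb3 was not tested. Without that library the injured KO minus WT estimate went from 0.23 to -0.13 for Erbb2 and from 0.34 to -0.08 for Erbb3.

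Which members differ between Myf6 KO and WT muscle was asked in each injury state and over the means of each animal's 2 libraries. In uninjured muscle, 5 members were high enough to be tested and 0 passed an adjusted p of 0.05, while 0.281% of all genes did, 35 of 12460. The unadjusted p was under 0.05 for 0 of the 5 and for 14.2% of all genes. All 5 estimates were negative, with Egfr the lowest at -0.57 (SE 0.38, 95% interval -1.41 to 0.28, adjusted p = 0.539) and Egf next at -0.41 (SE 0.40, -1.31 to 0.48, adjusted p = 0.690). Hbegf was at -0.18 (-1.08 to 0.71), Erbb2 at -0.10 (-1.21 to 1.01) and Erbb3 at -0.02 (-1.13 to 1.09). The median of all genes tested was itself -0.18. When libraries were scaled by TMM or by the upper quartile, that median was 0.02 or 0.04, and then 3 of the 5 estimates were above 0, those of Hbegf, Erbb2 and Erbb3, so their direction depends on the scaling. Egf and Egfr stayed below 0 under all 17 alternatives, between -0.74 and -0.16 for Egf and between -0.84 and -0.33 for Egfr.

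In injured muscle 0 of 6 members passed, while 0.269% of genes did, 34 of 12625, and 0 of 6 had an unadjusted p under 0.05, against 10.3% of all genes. The largest estimate relative to its error was that of Hbegf, 0.31 (SE 0.16, 95% interval -0.08 to 0.69, adjusted p = 0.570), and it was between 0.25 and 0.35 under the 17 alternatives. Tgfa was at 0.44 (SE 0.38, -0.46 to 1.34, adjusted p = 0.732), and at 0.10 without injured WT replicate 2, which had 0 Tgfa reads. Egf was at -0.17 (-0.72 to 0.39) and Egfr at -0.17 (-0.65 to 0.31). Erbb2 was at 0.23 (-0.60 to 1.06) and Erbb3 at 0.34 (-0.55 to 1.23). These intervals leave room for changes of either sign in all 6.

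Over the means of each animal's 2 libraries, 3 KO against 3 WT, 0 of 6 members passed, while 1.16% of 13337 genes did, and 0 of 6 had an unadjusted p under 0.05, against 16.3% of genes. Egfr had the lowest estimate, -0.37 (SE 0.23, 95% interval -0.90 to 0.16, adjusted p = 0.482), followed by Egf at -0.29 (SE 0.26, -0.87 to 0.30, adjusted p = 0.627). The other 4 lay between 0.01 and 0.16. Quasi-likelihood tests in edgeR and Wald tests in DESeq2, both on whole reads recovered from the RPM values, also called 0 members in each of the 3 comparisons. In the authors' deposited table, whose log2 fold change is WT over KO, the q-value was 0.986 for every member listed in uninjured and 0.994 in injured muscle, and the fold change of Egfr was 0.46 with a standard error of 0.37 in uninjured muscle.

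Marker sums of other cell types are given beside these values, and by limma 0 genes of any marker list passed in either state. The 5 macrophage and leukocyte markers (Ptprc, Cd68, Csf1r, Adgre1 and Lyz2) summed to 38.8 to 69.6 RPM in uninjured KO and 70.2 to 131.8 RPM in uninjured WT muscle, and to 74.7 to 84.3 RPM in injured KO and 89.5 to 114.6 RPM in injured WT, without overlap in either state. Of single genes, 15.5% of those tested in uninjured and 8.63% in injured muscle were also lower in every KO than in every WT library. The myofibre markers summed to 122556 to 133415 RPM in uninjured KO and 77532 to 94379 RPM in uninjured WT muscle, without overlap. In injured muscle they summed to 84940 to 116412 RPM in KO and 84808 to 103365 RPM in WT, with overlap. The 5 fibroblast and fibro-adipogenic markers summed to 370.5 to 879 RPM in uninjured KO and 465 to 1344 RPM in uninjured WT. This sum was lowest in replicate 2 of both groups, which in WT is the shallowest library. So were Egfr, Egf, Hbegf and the macrophage and adipocyte sums. The 5 adipocyte markers summed to 542 to 1193 RPM in uninjured KO and 361 to 569 RPM in uninjured WT. The fibroblast and adipocyte sums overlapped between the genotypes there. In injured muscle the adipocyte markers summed to 271 to 1169 RPM in KO and 56.0 to 382 RPM in WT, with overlap. All 5 adipocyte estimates were above 0 in both states, with medians of 1.60 and 1.87 beside -0.18 and 0.01 for all genes. By limma the unadjusted p was under 0.05 for 4 of the 5 in uninjured and 3 in injured muscle, against 14.2% and 10.3% of all genes. The 5 satellite cell markers (Pax7, Calcr, Cdh15, Chodl and Myf5) summed to between 27.3 and 44.0 RPM in the 12 libraries, with overlap in both states. The part of these differences in the member values was not tested.

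The response to injury was compared within each genotype in 1 fit of all 12 libraries. In WT muscle the 6 members tested had estimates between -0.22 (Tgfa) and 0.23 (Egfr), 0 passed the limma test, and 0 had an unadjusted p under 0.05. Over all 13337 genes 0% passed and 1.29% had an unadjusted p under 0.05. In KO muscle all 6 estimates were positive, from 0.34 for Erbb2 to 0.64 for Tgfa, with a median of 0.42 beside 0.29 for all genes. Again 0 passed and 0 had an unadjusted p under 0.05, against 0% and 3.51% of all genes. Under upper quartile scaling the median over the members fell to 0.09 and that over all genes to -0.02. Uninjured KO replicate 2 had the lowest Egf, Hbegf and Egfr of the series. Without it all 6 estimates stayed positive, with a median of 0.10 over all genes. They were then 0.13 for Egf, 0.09 for Hbegf, 0.04 for Erbb2, 0.40 for Tgfa, 0.43 for Egfr and 0.54 for Erbb3. By edgeR and by DESeq2, 0 members and 0 genes passed in either genotype.

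Egfr was the member with the largest injury estimate relative to its error in KO muscle, 0.62 (SE 0.31, 95% interval -0.04 to 1.28, adjusted p = 0.728). It went from 9.24 to 12.3 RPM in KO animal 1, from 7.01 to 18.9 RPM in animal 2 and from 13.1 to 14.9 RPM in animal 3, higher on the injured side in 3 of 3. In WT animals it went from 18.1 to 16.9, from 9.57 to 15.7 and from 17.6 to 19.0 RPM, higher in 2 of 3. Of the other members, Hbegf was higher on the injured side in 2 of 3 animals of each genotype, and Egf in 1 of 3 WT and 2 of 3 KO animals. Erbb2 and Erbb3 were each higher in 2 of 3 KO animals, and without injured KO replicate 2 their KO estimates were -0.02 each.

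Whether the injury response differs between the genotypes was tested by the interaction term. Its estimates were positive for all 6 members, from 0.24 for Egf to 0.87 for Tgfa (SE 0.55, 95% interval -0.33 to 2.06). Their median was 0.38 beside 0.20 for all genes, and the Tgfa estimate draws on libraries with 0 or 1 read. Under upper quartile scaling 5 of 6 were positive, with a median of -0.04 for all genes, and 4 of 6 were without injured KO replicate 2. In the reported fit 0 members passed, and 0 had an unadjusted p under 0.05. Of 13337 genes 0% passed and 1.56% had an unadjusted p under 0.05. Both edgeR and DESeq2 also called 0 members and 0 genes. The narrowest of the 6 intervals were those of Egfr, -0.54 to 1.33, and Hbegf, -0.46 to 1.44.

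**Figure D4:**
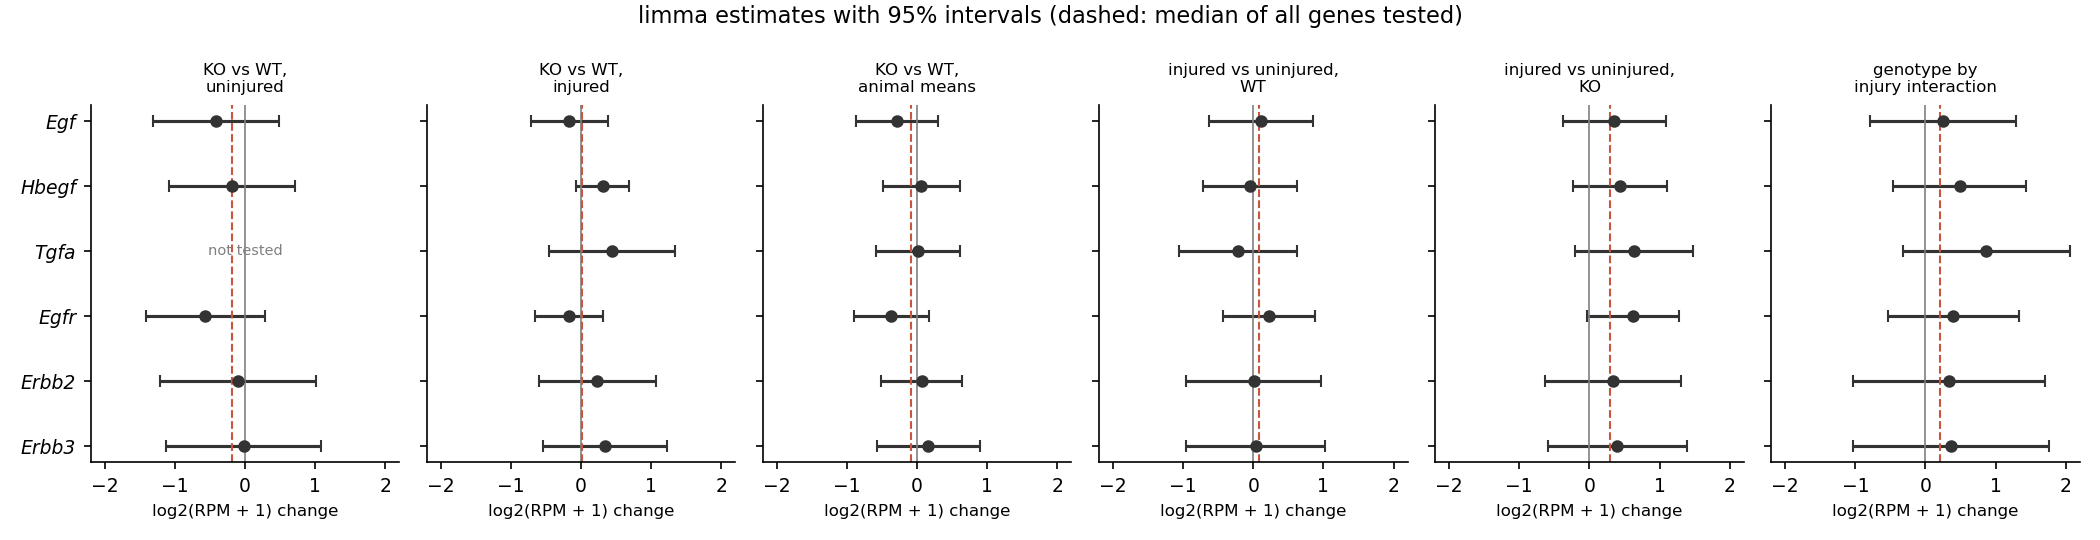
Estimates of the 6 tested members (points) with 95% intervals (bars) in 6 comparisons, on the log2(RPM + 1) scale, with the median of all genes dashed in red. All intervals reach across 0, and Tgfa was too low to be tested in uninjured muscle.

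Across the 12 libraries, which come from 6 animals, the levels of some members ran together. Pearson's r of log2(RPM + 1) was 0.69 between Egf and Hbegf, 0.68 between Egf and Egfr, 0.64 between Hbegf and Egfr, and 0.62 between Erbb2 and Erbb3. Egf ran against Erbb2 (r = -0.40) and Erbb3 (r = -0.43). Tgfa had an r of 0.64 with Hbegf, 0.56 with Egfr, 0.45 with Erbb2 and 0.14 with Egf. These values describe libraries that share animals and scaling, and were given no test. The 2 genes most like each member, among 13337, were Snx10 (r = 0.96) and Snap23 (0.96) for Egf, Bbc3 (0.96) and Mapre1 (0.96) for Hbegf, and Ddn (0.94) and Glis2 (0.90) for Tgfa. For the receptors they were Morc3 (0.98) and Abca8a (0.97) for Egfr, Inafm1 (0.94) and Ism1 (0.93) for Erbb2, and Metrnl (0.95) and Atp13a5 (0.92) for Erbb3.

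Genes that act with the ligands and receptors were followed in 5 lists of 61 genes in all, of which 59 were tested in uninjured and 58 in injured muscle. By limma 0 of them passed in either state. In uninjured muscle 38 of 59 estimates were below 0, with a median of -0.25 beside -0.18 for all genes, and 4 had an unadjusted p under 0.05, where 14.2% of all genes did. In injured muscle 38 of 58 were above 0, with a median of 0.09 beside 0.01, and 8 had an unadjusted p under 0.05, where 10.3% of all genes did. Under TMM scaling 32 of 59 were below 0 in uninjured muscle.

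The ligand shedding list (9 genes) had a median of -0.57 in uninjured KO muscle, with 7 of 9 estimates below 0, and 0.02 in injured muscle. Adam17, the main sheddase of Tgfa, Hbegf and Areg, was at 16.5, 13.8 and 19.4 RPM in uninjured WT and at 9.02, 3.46 and 13.5 RPM in uninjured KO muscle. All KO values lay below all WT values there, as for 15.5% of all genes tested, and the change of -1.01 (SE 0.45, adjusted p = 0.355) did not pass. Genes named from these lists were picked by lowest unadjusted p, a choice that favours groups without overlap. After injury Adam17 was at 20.6, 13.1 and 16.7 RPM in WT against 13.5, 17.2 and 13.0 RPM in KO, with overlap. Rhbdf2, an inactive rhomboid that carries Adam17 to the cell surface, had estimates of -0.73 (adjusted p = 0.377) and -0.50 (adjusted p = 0.582) in the 2 states. Bace1, a protease that cleaves Nrg1, was at 0.69 (SE 0.19, adjusted p = 0.313) in injured muscle.

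Among the 16 adaptors and Ras-MAPK genes, Map2k2, which encodes the MAPK kinase Mek2, was at 131.0, 152.7 and 129.1 RPM in uninjured WT and at 253.6, 227.9 and 209.7 RPM in uninjured KO muscle. All KO values were above all WT values, as for 6.2% of all genes tested, with a change of 0.74 (SE 0.23, adjusted p = 0.206). In injured muscle it was at 162.9, 181.4 and 169.4 RPM in WT against 208.1, 143.8 and 202.6 RPM in KO, with overlap. Of the 8 PI3K-Akt genes all 8 had positive estimates in injured muscle, with a median of 0.34 beside 0.01 for all genes, and 0 passed by limma. Akt1, a central kinase of that branch, was at 0.54 (SE 0.17, adjusted p = 0.357) by limma. By DESeq2 on recovered reads it was at 0.57 (adjusted p = 0.0455), past the threshold, as were 427 of 12606 genes there. In uninjured muscle 4 of the 8 were positive. Akt2 was at 0.69 (SE 0.36, adjusted p = 0.426) by limma. By DESeq2 it was at 0.92 (adjusted p = 0.0458), past the threshold, as were 663 of 12450 genes there. Pik3ca, a catalytic subunit of PI3K, was at -0.34 (SE 0.26, adjusted p = 0.597) by limma. Sos2, an exchange factor that activates Ras, was at -0.88 (adjusted p = 0.430) in uninjured muscle. In injured muscle the phosphatase gene Ptpn11 was at 0.77 (adjusted p = 0.452), Nras at 0.40 (adjusted p = 0.464) and Pik3r2, a regulatory subunit of PI3K, at 0.27 (adjusted p = 0.574).

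The 16 receptor inhibitors and feedback genes had 13 estimates below 0 in uninjured KO muscle, with a median of -0.48, and 12 below 0 under TMM scaling, with a median of -0.27 beside 0.02 for all genes. Errfi1 (also named Mig6), which binds and inhibits the Egfr kinase, was at 34.8, 21.8 and 28.7 RPM in uninjured WT and at 17.5, 6.69 and 27.1 RPM in uninjured KO muscle. After injury it was at 38.8, 38.0 and 34.5 RPM in WT against 17.1, 30.4 and 25.3 RPM in KO. It was lower in every KO than in every WT library there, as were 8.63% of all genes tested. Its change was -0.87 (SE 0.47, adjusted p = 0.437) in uninjured and -0.63 (SE 0.23, adjusted p = 0.428) in injured muscle. Socs4 was at -1.28 (SE 0.56, adjusted p = 0.346) in uninjured muscle, and Rnf41 (also named Nrdp1), a ubiquitin ligase for Erbb3, was at 0.50 (SE 0.16, adjusted p = 0.375) in injured muscle.

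Of 12 genes known as targets of the pathway, 10 were tested. Etv4, a transcription factor of the Ets class, was at 2.35, 1.60 and 2.01 RPM in uninjured WT and at 4.79, 4.41 and 3.76 RPM in uninjured KO muscle. After injury it was at 2.03, 1.95 and 1.49 RPM in WT against 4.09, 4.81 and 4.56 RPM in KO. All KO libraries were above all WT libraries in both states. Taken singly, this held for 6.2% of all genes tested in uninjured and 8.29% in injured muscle. The 1.60 RPM of uninjured WT replicate 2 equals that library's floor of 3 reads, so the separation in uninjured muscle rests in part on 3 reads. The Etv4 changes were 0.84 (SE 0.34, adjusted p = 0.314) and 0.96 (SE 0.19, adjusted p = 0.164) by limma. DESeq2 on recovered reads called Etv4 in injured muscle (1.31, adjusted p = 0.00134), among 427 of 12606 genes. The q-value in the authors' deposited table was 0.0213, where 225 of 25201 genes passed. Phlda1 was at 6.40, 3.72 and 6.23 RPM in uninjured WT and at 2.09, 1.18 and 1.66 RPM in uninjured KO muscle. All KO values lay below all WT values, as for 15.5% of all genes tested. The Phlda1 change of -1.27 (SE 0.37, adjusted p = 0.187) did not pass. Egr1, an immediate early transcription factor, was at 1.09 (SE 0.37, adjusted p = 0.401) in injured muscle.

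The lists were also fitted without injured KO replicate 2, the library with the highest endothelial marker sum. Without it 11 of the 58 pathway genes (19.0%) passed in injured muscle, and so did 19.0% of all genes, 2343 of 12312. Among the 11 were Akt1 (0.66, adjusted p = 0.0195), Akt2 (1.08, adjusted p = 0.0140), Bace1 (0.81, adjusted p = 0.0176), Errfi1 (-0.80, adjusted p = 0.0291) and Etv4 (0.92, adjusted p = 0.0247), all by limma with 2 KO libraries. Of the members 0 passed without it, and Hbegf was at 0.31 (adjusted p = 0.192) and Egfr at -0.32 (adjusted p = 0.206).

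**Figure D5:**
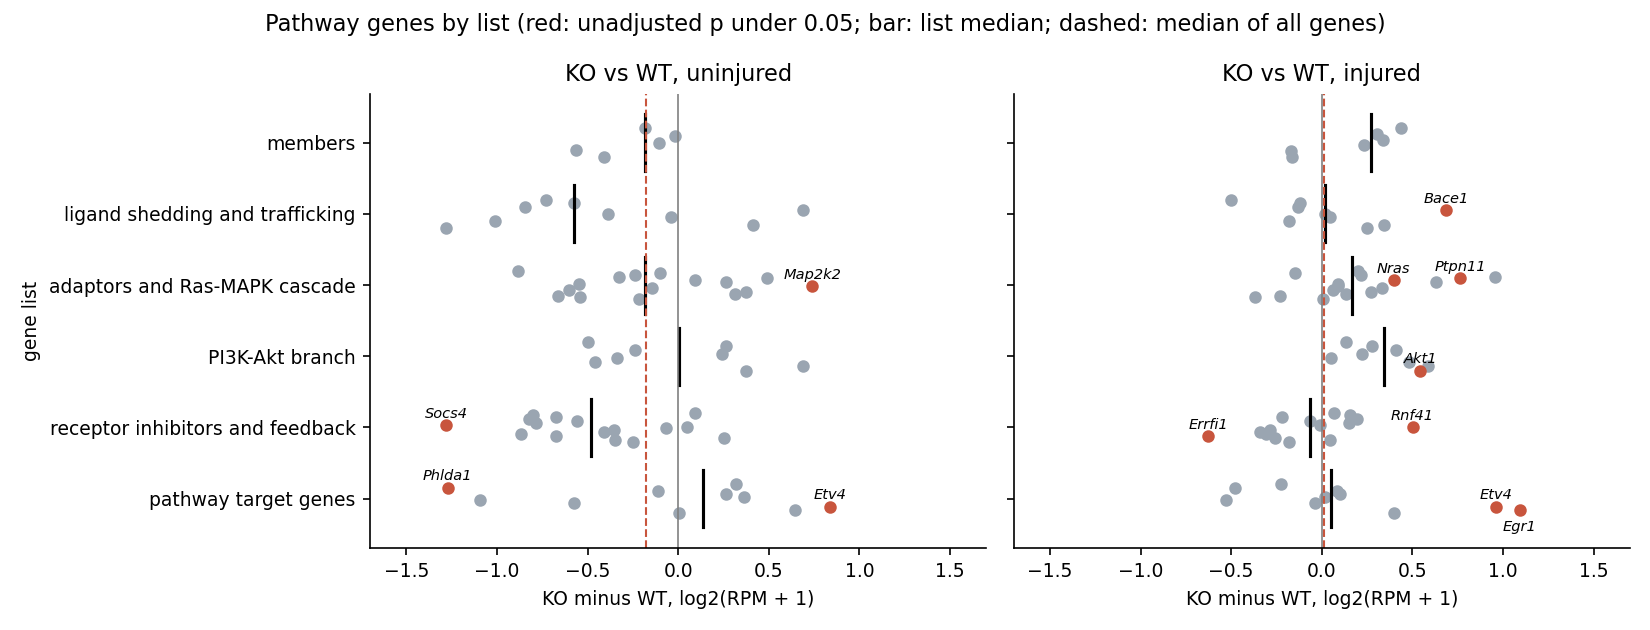
KO minus WT estimates of each gene (points) by list in uninjured and injured muscle, on the log2(RPM + 1) scale, with red points for an unadjusted p under 0.05, black bars for list medians and dashed lines for the median of all genes. The feedback list sits below the median of all genes in uninjured muscle, and Etv4 is to the right in both states.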

How the data were processed

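RNA-seq values were deposited by the authors as RPM per library, in 1 table for uninjured and 1 for injured muscle. The authors' deposited tables also give each gene's log2 fold change (WT over KO) with its p-value and q-value. The submitters' processing notes name HISAT2 2.1.0, featureCounts, DESeq2, Bowtie 1.1.0, SAMtools and MACS2 2.1.0.20140616, and the builds mm10 and GRCm38.p5, without saying which step used which. The deposited peak list gives, per the file headers, MACS2's pileup signal at each summit, its fold enrichment, and p-value and q-value as −log10. Use of strand and of reads that match several genes is not given in the sources used here.

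From these files, whole reads were recovered from the RPM values (100% of testable values whole within 0.1 read). Tests used limma 3.58.1 (R 4.3.3) with trend on log2(RPM + 1), two-sided, for genes that reached 1 RPM in 3 or more of the libraries fitted (of all 12 for animal means), with Benjamini-Hochberg adjustment over all genes tested and a threshold of 0.05. Fold changes on this scale understate those of low genes. The genotype comparisons used the 6 libraries of a state or the 6 animal means. The injury and interaction comparisons used 1 fit of the 12 libraries. Alternatives were edgeR 4.0.16 and DESeq2 1.42.0 on recovered reads, other scalings, filters, a pseudocount of 0.1, a replicate block, the deposited q-values and leaving out each library. The scripts were tested on simulated data. Nothing in the labels says more of the replicates than their numbers, so p-values measure the spread between these samples. The fits reported were not paired. For the injury comparisons the replicate block was the animal number, which occurs with L and R. The deviations of the 2 libraries of an animal from their group means correlated at 0.28, -0.23 and 0.02 in WT and 0.02, 0.50 and 0.63 in KO. For libraries of different numbers the values ran from -0.40 to 0.31 in WT and from -0.62 to 0.50 in KO. The ranges overlap, so these values cannot settle whether a shared number marks 1 animal.

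Gene positions came from RefSeq on GRCm38.p6, whose gene table gives no strand, so peaks were counted over the gene and 100 kb on either side instead of around the start. Peak summits lay within 500 bp of 1.71% of 32812 annotated starts, and of 0.780% and 0.762% after shifting the starts by 50 kb. The set of members, though defined by gene name, and the gene lists were chosen with earlier results of these data known. Text names all family genes and, in each pathway list and state, the genes called and the 2 of lowest unadjusted p. The sums of 1 marker list are not reported here.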

Additional observations from a re-analysis of the deposited data

How the results depend on the processing

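No member was called in any of the 6 comparisons under any alternative: the 647 estimates gave 0 calls, and the lowest adjusted p was 0.167 (Egfr, injured against uninjured KO). The sign differed from the reported one in 65 of the 647, and 14 of 35 pairs of a gene and a comparison kept their sign throughout. With the replicate number as a replicate block, 0 members were called in each comparison, and it changed no call of a member. WT and KO replicates share only a number. Over all genes the block gave 752 calls in uninjured muscle, 0 in injured muscle and 96 over animal means, against 35, 34 and 155. Other tests, scalings, filters and the block moved these counts between 1 and 752, 0 and 427, and 7 and 632. Leaving out 1 library or animal moved them between 3 and 84, 0 and 2343 (without injured KO replicate 2), and 18 and 2517 (without KO animal 2). For injury in KO muscle the count was 0 or 1, and in WT muscle and for the interaction 0. Of the peaks near members, those with a fold enrichment of at least 10 lay within 100 kb of 2 genes (Egf and Erbb3) instead of 6, beside 30.3% of all protein-coding genes. Depth limits Tgfa, Btc, Nrg1, Areg and Ereg, whose values rest on 0 to 64 reads a library.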
